A study of Homo sapiens with 6 samples.

Results

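The genes of the motile cilium and its axoneme were examined in H1155 cells, in 3 libraries labelled WT and 3 labelled GFI1-KO. They were chosen by name among the protein-coding rows of the deposited gene table: every symbol that begins with DNAH, DNAI or RSPH and a number, every CFAP gene, and KIF19, ERICH3, FOXJ1, MCIDAS, CCDC39, CCDC40, SPAG6, SPAG16, SPAG17, HYDIN, TEKT1, TEKT2 and TEKT3. The rule found 70 rows among 58735 genes, of which 19951 are protein-coding, and CCDC39 has 2 rows. The set was proposed from earlier results of the same comparison. The calls and fold changes of its members given below therefore describe these libraries and are no independent test of the set.

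H1155 is a neuroendocrine large cell lung cancer line that grows as floating clusters, here kept untreated in DMEM with fetal bovine serum. The GFI1-KO cells were sorted as GFP-positive monoclonal clones after CRISPR/Cas9 editing with guides against the promoter region of GFI1, a zinc finger repressor known from blood cell development. The sources do not say how many clones stand behind the 3 GFI1-KO libraries, nor that libraries of a group came from separate cultures, so p-values measure only the spread between these samples, and an effect of the edit and a property of a clone cannot be told apart. Library totals lay between 14882914 and 17692882 counts.

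GFI1 itself was counted 153, 106 and 125 times in the libraries labelled WT and 174, 188 and 170 in those labelled GFI1-KO, so the groups did not overlap and the level was higher in the libraries labelled GFI1-KO. Normalized counts, which are counts scaled to a common library size by edgeR's TMM factors, were 135 ± 19.9 against 168 ± 9.28 (SD, n = 3 each). The log2 fold change was 0.31 ± 0.12 (SE; edgeR quasi-likelihood test, Benjamini-Hochberg adjusted p = 0.0273), and the call was lost without WT 2 (0.21), WT 3 (0.28) or GFI1-KO 2 (0.27), with DESeq2 (adjusted p = 0.072), and with the GC offsets given below (0.17). Counts over the whole gene do not show whether the transcript of an edited allele is intact. The directions below follow the labels.

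A motile cilium beats through its axoneme, a ring of doublet microtubules around a central pair. Dynein arms on the doublets, built of heavy chains (DNAH genes), intermediate chains (DNAI genes) and light chains, slide neighbouring doublets, and radial spokes and the central apparatus set the timing of the beat. In airway epithelium the multiciliated cells make these parts under MCIDAS and GMNC, which start the program, and FOXJ1 and RFX factors, which switch on the structural genes. RFX factors bind a paired DNA element called the X-box, known from many ciliary promoters.

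The promoters of the members carried X-box letters more often than promoters at large. RefSeq windows of 300 bases on GRCh38.p14, from 250 before to 50 after the start site, were matched by symbol for 58 of the 69 member symbols. GTTGCC, the letters of an X-box arm, stood on either strand in 29 of these 58 windows (50%), against 12.2% of 35116 windows of all genes and 12.7% of 10967 windows of tested protein-coding genes. The share was 42.1% among members called lower in GFI1-KO, 60% among those called higher, 46.2% among those not called and 57.1% among those not tested, over 19, 5, 13 and 21 windows. RSPH10B and RSPH10B2 are near copies and count separately here. The window of CCDC39 holds GTTGCC and counts here as called lower. That window lies at the start of the CCDC39 row ENSG00000284862, which was not called. A match of letters is a description of the sequence and not of binding.

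Both arms next to each other, searched on both strands as GTTNCC and GGNAAC with 0 to 3 bases between them, stood in 3 member windows (5.17%) and in 0.74% of all windows. An element with GTTGCC in its first arm also counts among the arm matches above. They are shown because they are the most complete X-boxes of the set, each from RefSeq with 8 bases on either side and the element in capitals.
DNAH1 (chr3:52316206-52316235, plus strand, 105 bases before the start site): aggctgatGTTGCCATGGCAACccggatag
SPAG16 (chr2:213284272-213284301, plus strand, 184 bases before the start site): gcaacatcGTTGCCACGGTAACtgggaggc
CFAP45 (chr1:159900163-159900192, minus strand, 19 bases before the start site): ggctagtgGTTGCCAAGGTAACgcgtcaac

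These 3 genes had different outcomes: DNAH1 was higher in GFI1-KO, SPAG16 lower, and CFAP45 not called. Single arms are shown for the member with the largest increase, for 2 dynein and spoke genes that were lower, for the most abundant member, and for the regulator MCIDAS, with 12 bases on either side and the arm, or its reverse complement GGCAAC, in capitals.
DNAH6 (chr2:84516410-84516439, plus strand, 76 bases before the start site): gctggttgaggcGTTGCCtggcgacgtgtt
RSPH4A (chr6:116616417-116616446, plus strand, 50 bases before the start site): ccctcgaatcctGGCAACaggcgcggtgag
CFAP74 (chr1:2003820-2003849, minus strand, 51 bases before the start site): atggagtcttccGTTGCCatggagctgccc
CFAP36 (chr2:55519619-55519648, plus strand, 87 bases before the start site): gcggctacgtgtGTTGCCatagcgaccatt
MCIDAS (chr5:55227412-55227441, minus strand, 114 bases before the start site): gggggaagcccgGTTGCCaggttgggttta

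AAATCAC, a stretch of the element that GFI1 binds, stood in 1 of the 58 member windows (1.72%). It stood in 3.14% of all windows and in 1.83% of the 10967 windows of tested protein-coding genes, so the member share was near the latter. Shorter or varied forms of the element were not searched, so windows without AAATCAC may still hold them. The promoter windows of ERICH3 and CCDC40 did not hold GTTGCC on either strand, and KIF19 had no entry.

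Most members were silent or low. FPKM, counts scaled by the deposited gene length and the library total, allows levels to be compared between genes. Of the 70 members, 20 reached a mean of 1 FPKM in a group, and 27 more passed the filter on low counts below that level. Another 15 failed the filter with at least 3 counts in a library, 4 had 1 or 2 counts at most (SPAG6, CFAP47, RSPH6A and CFAP100), and 4 had no count in any library (TEKT1, CFAP126, CFAP97D2 and DNAH8). Detection was set at 3 counts per library, and this floor and the intervals below cover counting error only. The median member stood at 0.272 FPKM in WT and 0.209 in GFI1-KO, against 2.35 and 2.42 for all protein-coding genes. The same number of members, 18, reached 1 FPKM in WT and in GFI1-KO.

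**Figure D1:**
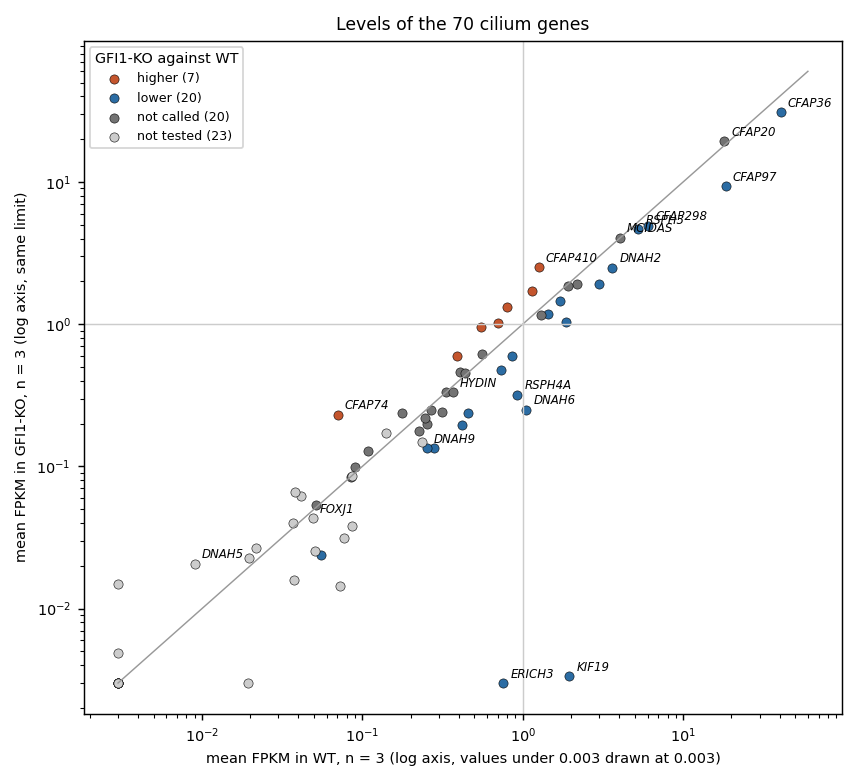
Mean FPKM of the 70 members in the libraries labelled WT (x axis) and GFI1-KO (y axis), n = 3 each, on log axes with lower values drawn at 0.003; colours give the call, the diagonal marks equal levels and the grey lines mark 1 FPKM. CFAP36, CFAP20 and CFAP97 were the highest, and KIF19 and ERICH3 left the diagonal the farthest.

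The cells carried neuroendocrine markers, and some but not all of the multiciliated airway markers. The neuroendocrine markers INSM1, CHGA, CHGB, SYP, NCAM1, DDC and NEUROD1 each reached 1 FPKM in a group, and their levels summed to 342 to 353 FPKM in WT and 392 to 397 in GFI1-KO. CHGA, CHGB, SYP and NCAM1 were higher in GFI1-KO and INSM1, DDC and NEUROD1 lower, DDC falling from 4.58 to 0.471 FPKM. Of 10 multiciliated airway markers, 4 reached 1 FPKM (TPPP3, CAPS, RSPH1 and CCDC78), C20orf85 and TEKT1 had no count, and FOXJ1 and SNTN had means under 0.05 FPKM. Their summed level was 4.85 to 5.69 FPKM in WT and 7.23 to 7.68 in GFI1-KO. Of the 5 that were tested, 4 were higher in GFI1-KO, against 36.5% of all tested genes: CAPS, PIFO, CCDC78 and RSPH1. The call of RSPH1 was marginal (adjusted p = 0.0496, edgeR) and ended with DESeq2 and with the GC offsets given below. Summed markers of club, basal and leukocyte cells stayed at or under 1.07 FPKM in each library. Alveolar type 2 markers summed to 14.6 to 17.7 FPKM in WT and 12.7 to 13.7 in GFI1-KO, goblet markers to 12.3 to 15.6 and 6.58 to 8.19, fibroblast markers to 16.4 to 16.9 and 11.2 to 11.6, and endothelial markers to 3.53 to 3.97 and 1.74 to 1.98. Only 2 of 5 alveolar type 2 markers reached 1 FPKM in a group, 1 of 4 goblet, 1 of 4 fibroblast and 1 of 3 endothelial. Each of these 4 sums thus came mostly from 1 or 2 genes. The part of these marker levels in the members' differences was not tested. In bulk RNA, fewer cells of a kind and less RNA per cell cannot be told apart.

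Between the groups, more members were lower in GFI1-KO than higher, and 2 were all but absent. In the edgeR fit over all genes, 47 members were tested, with 7 called higher and 20 called lower in GFI1-KO (adjusted p up to 0.05, changes of any size). The same fit called 36.5% of all 17514 tested genes higher and 35.9% lower. For tested protein-coding genes the shares were 39.6% and 38.9%, and for the members 14.9% and 42.6%. Restricted to changes of 1 or more on the log2 scale, 2 members were higher (10.2% of all tested genes) and 7 lower (7.29%). Groups of libraries did not overlap for 8 members that were higher in GFI1-KO and 20 that were lower, against 37.5% and 37% of all tested genes. The rule was proposed from this contrast, and nothing is read from these shares, nor from the counts by part or list below.

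The median log2 fold change of the 47 tested members was −0.16, with KIF19 and ERICH3 at their fitted values or at the bound that a floor of 3 counts gives, against 0.0005 for all tested genes. It was −0.26 without WT 2 and −0.07 with the GC and length offsets given below. The members' changes were not large as a whole: the median size was 0.37, against 0.48 for all tested genes. They lie on 16 chromosomes.

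**Figure D2:**
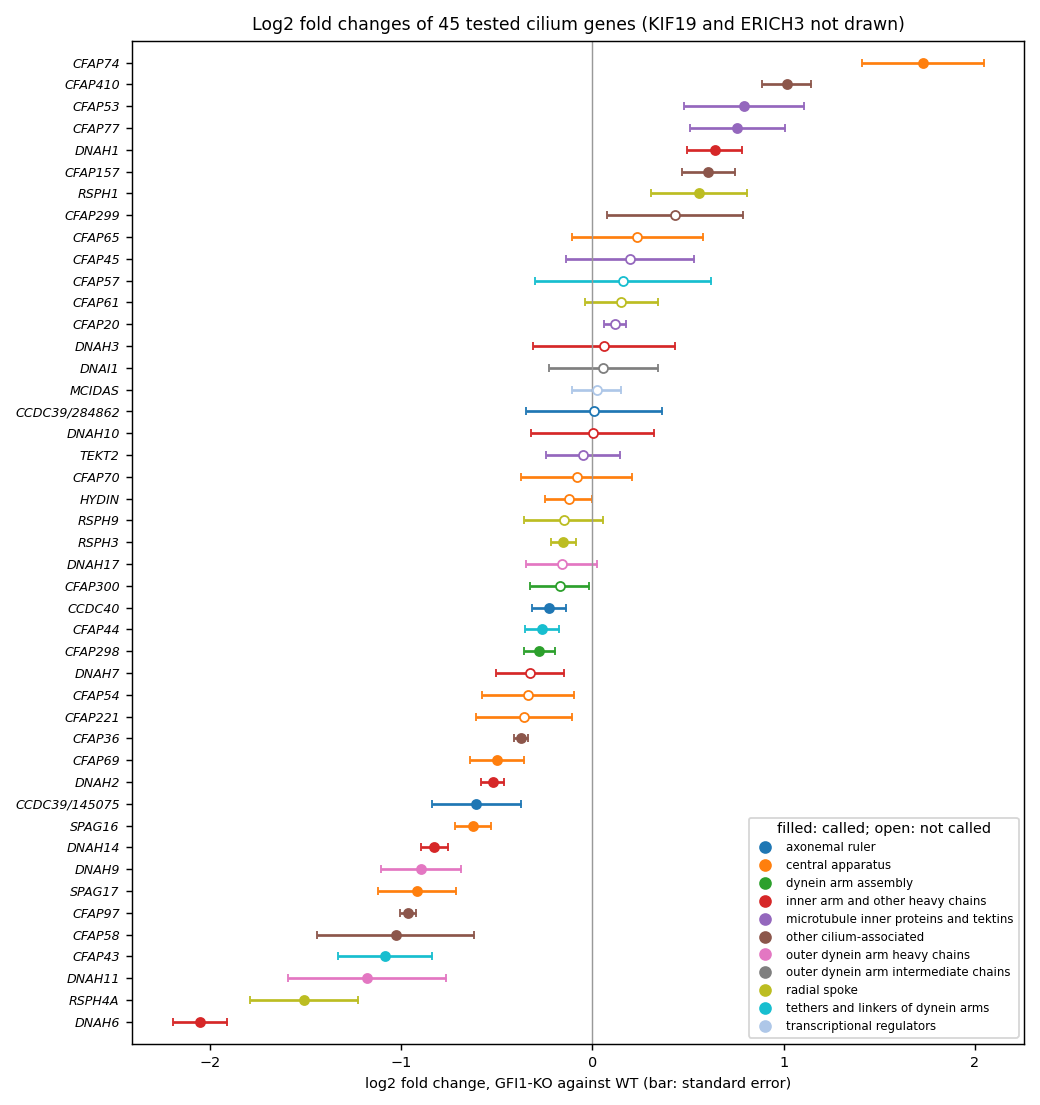
Log2 fold change of GFI1-KO against WT with its standard error (x axis) for 45 tested members (y axis), coloured by the part of the cilium to which each belongs; filled points were called at an adjusted p of at most 0.05. KIF19 and ERICH3 are left out because their GFI1-KO libraries held 1 count in all. DNAH6 stood lowest at −2.05 and CFAP74 highest at 1.73.

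KIF19, a kinesin that keeps motile cilia short by removing tubulin from their tips, lost its signal in GFI1-KO. Its reads numbered 169, 165 and 178 in the libraries labelled WT and 0, 0 and 1 in those labelled GFI1-KO. The normalized mean went from 181 ± 7.07 to 0.314 ± 0.543 (SD, n = 3 each), and the level from 1.95 to 0.00334 FPKM. Summed over the libraries, 512 counts stood against 1, a ratio of 572.5 once scaled by the summed library sizes, with a 95% counting interval of 102.3 to 22650. KIF19 lies on chromosome 17, positions 74326210 to 74355820 of GRCh38.

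ERICH3, a glutamate-rich protein of cilia, had 122, 96 and 92 counts in WT and none in any GFI1-KO library. The normalized mean in WT was 109 ± 14.4, so the gene was at least 38.2-fold lower in GFI1-KO, taking a floor of 3 counts per library. It lies on chromosome 1, positions 74568111 to 74673738.

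Several genes beside KIF19 and ERICH3, looked at after the members' values were known, were called too. Of all tested genes, 36.5% were called higher and 35.9% lower, so a called neighbour is common in this comparison. BTBD17, the next tested gene after KIF19, went from 135 ± 13.5 normalized counts in WT to 5.99 ± 3.32 in GFI1-KO (log2 fold change −4.46 ± 0.27 SE; adjusted p = 4.6e-14, edgeR), and GPR142 beyond it from 37.3 ± 4.99 to 9.78 ± 1.05 (−1.92 ± 0.31; adjusted p = 5.2e-06, edgeR). On the other side, the member DNAI2 had at most 5 counts in a library, TTYH2 was not called (0.21 ± 0.18), and RPL38 was higher (1.17 ± 0.06). Of the tested genes 3 and 4 places away, GPRC5C (0.50), RAB37 (1.64) and CDC42EP4 (1.13) were higher and SDK2 lower (−0.86). Beside ERICH3, LRRC53 had 26.5 ± 3.57 normalized counts in WT and none in GFI1-KO, at least 9.28-fold lower at the same floor, and CRYZ (−0.71), FPGT (−0.65), TYW3 (−0.44), LHX8 (−2.09) and SLC44A5 (−2.21) were lower too, while LRRIQ3 (0.18) and MIR186 (0.08) were not called. The genes on either side of DNAH6, SUCLG1 and TRABD2A, were not called, with log2 fold changes of −0.06 and 0.07.

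**Figure D3:**
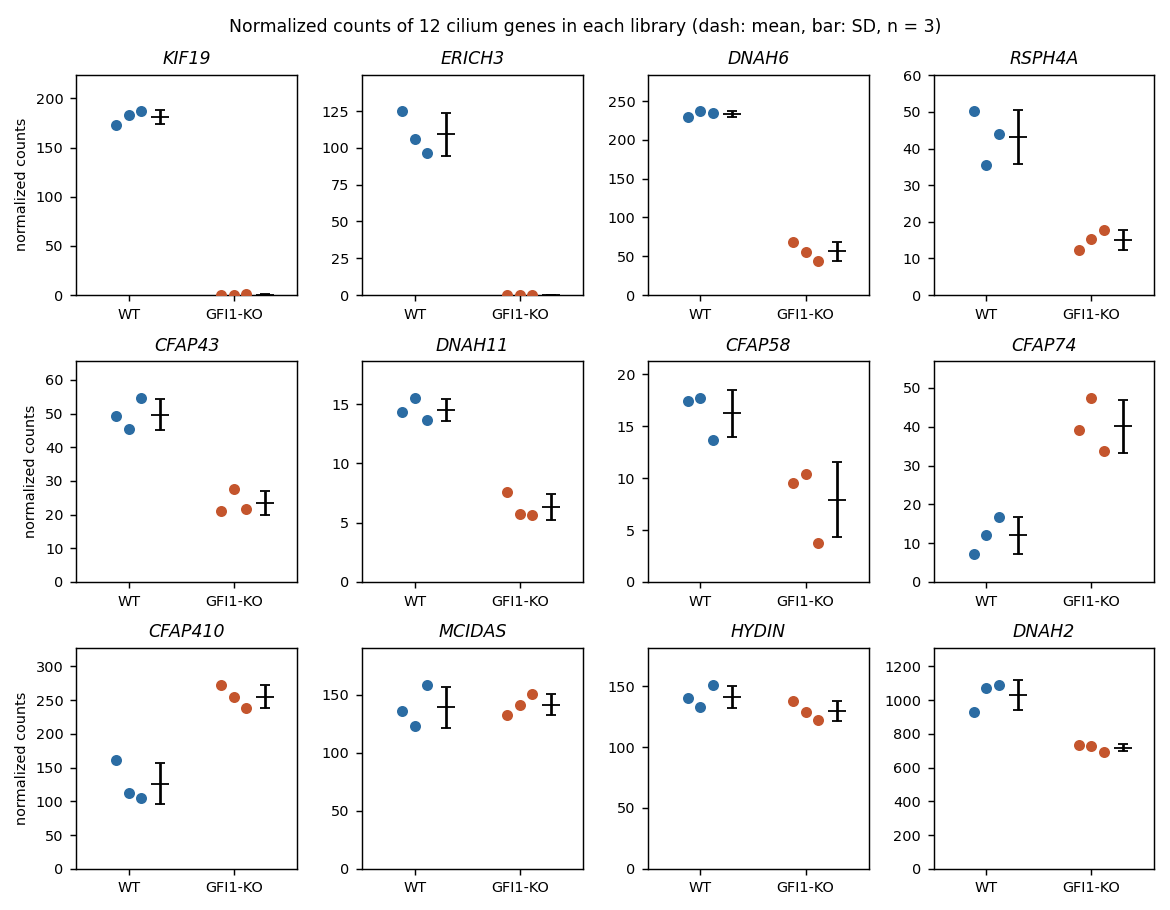
Normalized counts (y axes, each from 0) of 12 members in the 3 libraries of each group, as points, with the mean (dash) and SD (bar). KIF19, ERICH3, DNAH6 and RSPH4A were low in each GFI1-KO library, CFAP74 and CFAP410 were high, and the groups overlapped for MCIDAS and HYDIN.

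Of the 2 regulators among the members, MCIDAS was not called and FOXJ1 was not tested. MCIDAS, which starts the program, had 133, 111 and 151 counts in WT and 139, 149 and 160 in GFI1-KO. The groups overlapped, at 4.04 ± 0.52 and 4.06 ± 0.26 FPKM, and the log2 fold change was 0.02 ± 0.13, which became −0.33 and was called lower with the GC and length offsets given below. FOXJ1, the master factor of motile cilia, had 1, 2 and 3 counts in WT and 6, 0 and 0 in GFI1-KO. That is near the floor in both groups, where a small difference could not be seen at this depth.

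Of the dynein heavy chains, the motors of the arms, 10 of 13 were tested. Of these, 5 were called lower, 1 higher and 4 were not called (all tested genes: 35.9% lower, 36.5% higher). DNAH6, an inner arm chain, had 224, 214 and 224 counts in WT and 72, 59 and 47 in GFI1-KO. Its normalized mean fell from 234 ± 3.94 to 56.3 ± 12.2, a log2 fold change of −2.05 ± 0.14. DNAH2, also of the inner arms and the heavy chain with the highest level per length, had 909, 966 and 1038 counts in WT and 769, 766 and 737 in GFI1-KO. Its level fell from 3.63 ± 0.31 to 2.5 ± 0.07 FPKM, a log2 fold change of −0.52 ± 0.06. DNAH14 had 568, 522 and 619 counts in WT and 350, 371 and 356 in GFI1-KO (−0.83 ± 0.07).

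The exception was DNAH1, an inner arm chain of sperm tails and airway cilia whose complete X-box is shown above. Its normalized mean rose from 88.5 ± 16.4 in WT to 138 ± 2.87 in GFI1-KO (0.64 ± 0.15 on the log2 scale). DNAH3, DNAH7 and DNAH10 were not called, with values between −0.33 and 0.06, and DNAH12 had at most 5 counts in a library.

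The outer arm chains were low in both groups, none reaching 1 FPKM. DNAH11 had 14, 14 and 13 counts in WT and 8, 6 and 6 in GFI1-KO, and fell by 1.18 ± 0.41 on the log2 scale, a call that DESeq2 did not make. DNAH9 fell from 70.6 ± 8.33 to 37.9 ± 8.8 normalized counts (−0.90 ± 0.21). DNAH5, the main outer arm chain of airway cilia, had at most 6 counts in a library, DNAH8 had none, and DNAH17, known from sperm, was not called (−0.16 ± 0.19). Of the outer arm intermediate chains, DNAI1 was not called (0.06 ± 0.28) and DNAI2 was not tested.

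Of the 2 factors that assemble the arms in the cytoplasm, CFAP298 had 335, 304 and 306 counts in WT and 283, 276 and 313 in GFI1-KO. Its level fell from 6.04 ± 0.2 to 4.93 ± 0.31 FPKM (−0.28 ± 0.08). CFAP300 had 94, 87 and 88 counts in WT and 97, 89 and 81 in GFI1-KO, which overlap, and was not called (−0.17 ± 0.15).

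CCDC39 and CCDC40 form the ruler that sets the repeat along the doublet. CCDC40 had 285, 259 and 255 counts in WT and 246, 266 and 251 in GFI1-KO, and its normalized counts fell by 0.23 ± 0.09 on the log2 scale. CCDC39 has 2 overlapping rows. The row ENSG00000145075 had 60, 70 and 40 counts in WT and 38, 37 and 50 in GFI1-KO (−0.61 ± 0.23), with groups that overlapped although it was called. The row ENSG00000284862 had 28, 8 and 23 counts in WT and 24, 17 and 25 in GFI1-KO (0.01 ± 0.36). The first row shares 91.3% of its 50-base words with other rows, the second CCDC39 row among them, so how its counts were split is uncertain.

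Of the proteins that tether dyneins to the doublet, 2 of 3 tested were lower (all tested genes: 35.9%). CFAP43 had 48, 41 and 52 counts in WT and 22, 29 and 23 in GFI1-KO, a fall of 1.09 ± 0.25 on the log2 scale. Its partner CFAP44 had 291, 254 and 274 counts in WT and 244, 272 and 246 in GFI1-KO (−0.26 ± 0.09). CFAP57 was not called (0.16 ± 0.46), and CFAP73 and CFAP100 had too few counts to be tested.

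Radial spoke genes went both ways. RSPH4A, a spoke head protein needed for an intact central pair in airway cilia, had 49, 32 and 42 counts in WT and 13, 16 and 19 in GFI1-KO. Its level fell from 0.924 to 0.32 FPKM (−1.51 ± 0.28). RSPH1, another head protein, had 20, 37 and 40 counts in WT and 50, 51 and 59 in GFI1-KO (0.56 ± 0.25). RSPH3, a stalk protein and the most abundant spoke gene, had 534, 527 and 548 counts in WT and 567, 514 and 538 in GFI1-KO, and after scaling it fell by 0.15 ± 0.07. RSPH9 had 60, 43 and 57 counts in WT and 42, 58 and 61 in GFI1-KO (−0.15 ± 0.21, not called). CFAP61 was not called (0.15 ± 0.19), and RSPH6A, RSPH10B, RSPH10B2, RSPH14 and CFAP206 failed the filter.

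In the central apparatus, 3 of 9 tested members were lower and 1 higher (all tested genes: 35.9% and 36.5%). SPAG16, a central pair protein, had 408, 338 and 408 counts in WT and 256, 326 and 254 in GFI1-KO. Its normalized mean fell from 407 ± 28.7 to 264 ± 39 (−0.62 ± 0.09). SPAG17, of the C1a projection, had 66, 57 and 80 counts in WT and 38, 36 and 46 in GFI1-KO (−0.92 ± 0.21), and CFAP69 was lower as well (−0.50 ± 0.14). HYDIN, the giant protein of the C2b projection, had 137, 120 and 144 counts in WT and 145, 136 and 130 in GFI1-KO. It was not called (−0.12 ± 0.12), and it shares 40.4% of its 50-base words with other genes.

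CFAP74, a C1 projection protein, moved the other way and had the largest rise of the set. It had 7, 11 and 16 counts in WT and 41, 50 and 36 in GFI1-KO (1.73 ± 0.32 on the log2 scale). Its neighbours GABRD (1.53 ± 0.08) and TMEM52 (0.91 ± 0.29), looked at afterwards, were also higher, as were 36.5% of all tested genes. SPAG6, a central pair protein, had 1 count in 1 GFI1-KO library and none elsewhere. CFAP54, CFAP65, CFAP70 and CFAP221 were not called, with values between −0.36 and 0.24, and CFAP46 and CFAP47 were not tested.

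Of the proteins inside the doublets, 2 of 5 tested were higher and none lower (all tested genes: 36.5% and 35.9%). With the GC offsets given below TEKT2 became lower. CFAP20 had 655, 653 and 698 counts in WT and 795, 836 and 804 in GFI1-KO. At 18.1 ± 0.86 and 19.4 ± 0.51 FPKM it was among the most abundant members, and the log2 fold change of 0.12 ± 0.06 was not called although the groups were apart in normalized counts. CFAP77 had 20, 33 and 26 counts in WT and 51, 47 and 52 in GFI1-KO (0.76 ± 0.25), and CFAP53, known for its part in left-right asymmetry, was higher as well (0.79 ± 0.31). CFAP45 was not called (0.20 ± 0.34).

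The tektins are filaments of the doublet wall. TEKT2 had 69, 44 and 66 counts in WT and 67, 61 and 65 in GFI1-KO (−0.05 ± 0.19, not called). TEKT3 had 3, 0 and 6 counts in WT and 1, 0 and 1 in GFI1-KO, and TEKT1 had none.

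CFAP36 and CFAP97, members with less defined roles in the axoneme, were with CFAP20 the most abundant. CFAP36 had 2318, 2066 and 2255 counts in WT and 1863, 1884 and 1979 in GFI1-KO. Its level fell from 40.6 ± 0.83 to 30.9 ± 0.84 FPKM (−0.37 ± 0.04). CFAP97 had 2156, 1990 and 2038 counts in WT and 1185, 1201 and 1156 in GFI1-KO, and fell from 18.4 ± 0.32 to 9.33 ± 0.22 FPKM (−0.96 ± 0.04).

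CFAP410, which is also a protein of photoreceptors and of the base of cilia, rose. It had 157, 101 and 100 counts in WT and 286, 269 and 253 in GFI1-KO (1.01 ± 0.13), and it shares 52.8% of its 50-base words with other genes. CFAP157 had 84, 78 and 89 counts in WT and 158, 131 and 138 in GFI1-KO (0.61 ± 0.14), and CFAP58 had 17, 16 and 13 in WT and 10, 11 and 4 in GFI1-KO (−1.03 ± 0.41). CFAP299 was not called (0.43 ± 0.35).

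The calls of 7 members were marginal and ended when a library was left out. Without WT 1, CFAP77 (0.57), RSPH1 (0.28), CFAP58 (−0.98), CCDC40 (−0.21) and CCDC39 (−0.60) were no longer called, and without WT 2 CFAP58 (−0.97), CFAP53 (0.57), RSPH3 (−0.14) and CCDC39 (−0.40) were not. Without WT 3, RSPH3 (−0.15) lost its call. Without GFI1-KO 1, RSPH1 (0.60), CFAP53 (0.72), CCDC40 (−0.20) and CCDC39 (−0.55) lost theirs, and without GFI1-KO 2 RSPH1 (0.59), CFAP53 (0.77), RSPH3 (−0.11) and CCDC39 (−0.52) did. Without GFI1-KO 3 they were RSPH1 (0.49), CFAP58 (−0.69), CCDC40 (−0.21) and RSPH3 (−0.14). Directions did not change. Over the 6 fits that each left a library out, 5 to 7 members were higher and 17 to 19 lower. Of all genes, 6123 to 6246 were higher and 6027 to 6253 lower in these fits.

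The base composition of the genes moved with the members' calls. The median GC content of the longest transcript was 57% for the members called higher, 42.4% for those called lower and 48.7% for those not called, and for all tested genes the 3 medians were 56%, 41.8% and 47.9%. Across 17415 tested genes, which are not independent replicates, fold change and GC content had a Spearman rho of 0.574. The part of GC content in the members' differences was not tested.

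With offsets for GC content and gene length in each library, 16 of the 27 called members kept a call in the same direction. In all, 5 of the 47 tested members were then higher and 16 lower, beside 5610 higher and 5020 lower of all 17514 tested genes. KIF19 and ERICH3 were as low as before. DNAH6 (−1.64), RSPH4A (−1.31), CFAP43 (−0.67), SPAG17 (−0.55), DNAH9 (−0.95), DNAH2 (−0.67), CFAP298 (−0.29) and CCDC40 (−0.55) stayed lower, as did CFAP97 (−0.31), DNAH14 (−0.22) and CFAP36 (−0.10), and CFAP74 (1.29), CFAP53 (0.86) and CFAP410 (0.37) stayed higher. Of these, CFAP43, SPAG17, CFAP97, DNAH14, CFAP36 and CFAP410 shrank by more than 1.5 times. The calls of CFAP69, DNAH11, DNAH1, CFAP58, RSPH3, SPAG16, CCDC39, RSPH1, CFAP157, CFAP77 and CFAP44 ended. The sign changed for CFAP69 (0.16), CFAP44 (0.13) and RSPH3, which was then called higher (0.15). TEKT2 (−0.61), RSPH9 (−0.60) and MCIDAS (−0.33) were then called lower and CFAP299 (0.93) higher.

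**Figure D4:**
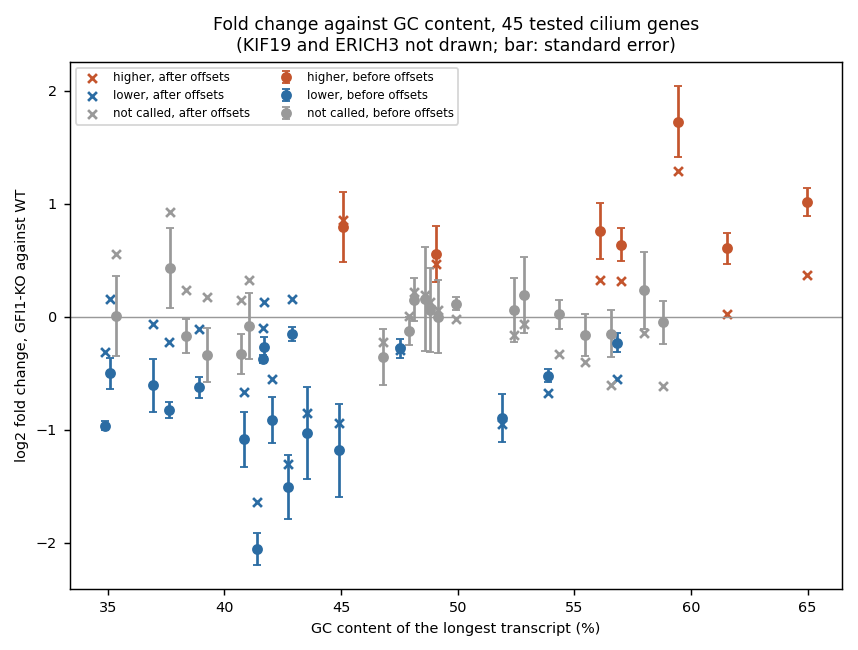
Log2 fold change of GFI1-KO against WT (y axis) of 45 tested members against the GC content of the longest transcript in percent (x axis), before offsets for GC content and length (points, with standard errors) and after them (crosses), coloured by the call before offsets. Members called lower lie mostly at low GC content, and their crosses mostly lie nearer to 0 than their points.

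Some counts may hold reads of other genes. More than 10% of the 50-base words of 14 members occur in another gene, among the called ones CCDC39, SPAG17 (15.6%), CFAP298 (25.6%), CFAP157 (29.8%), CFAP410 and CFAP44 (26.9%). CFAP44 overlaps BOC on the other strand, which rose from 18.2 ± 6.95 to 180 ± 19.5 normalized counts, and SPAG17 overlaps WDR3, which fell by 0.72 ± 0.05 on the log2 scale. The strand setting of the counting is not given in the sources used here, so reads of such pairs cannot be told apart.

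Genes that build cilia but lie outside the rule were read from 7 lists, with 96 of 112 genes tested. Of these, 25 were higher and 42 lower in GFI1-KO (26% and 43.8%, against 36.5% and 35.9% of all tested genes), and the median log2 fold change was −0.17. With the GC and length offsets, 23 of the 96 were higher and 25 lower, beside 5610 higher and 5020 lower of all 17514 tested genes. The lists were chosen with earlier results of these data known, and adjusted p-values below are from the edgeR quasi-likelihood fit over all genes.

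Intraflagellar transport, which carries cargo along every cilium, motile or not, was at a higher level than the axonemal parts, with 28 of 29 genes at 1 FPKM or more. Of the 29 genes, 17 were lower and 6 higher (58.6% and 20.7%, against 35.9% and 36.5% of all tested genes). With the offsets 10 were lower and 7 higher, beside 5020 lower and 5610 higher of all 17514 tested genes. WDR35 fell by 0.95 ± 0.04 (adjusted p = 8.6e-17, edgeR), IFT81 by 0.93 ± 0.06 (adjusted p = 2.8e-13, edgeR), IFT74 by 0.79 ± 0.10 and KIF3A, a subunit of the anterograde motor, by 0.75 ± 0.05. With the offsets these values were −0.45, −0.47, −0.20 and −0.20, and the call of IFT74 ended.

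Of the BBSome, a coat complex that moves membrane proteins, and its chaperones, 7 of 12 genes were lower and 1 higher (all tested genes: 35.9% and 36.5%). ARL6 fell by 0.81 ± 0.06, BBS7 by 0.53 ± 0.06, BBIP1 by 0.42 ± 0.07 and MKKS by 0.34 ± 0.07. With the offsets 1 gene of the list was lower and 4 higher, beside 5020 lower and 5610 higher of all 17514 tested genes. ARL6 then stood at −0.17, BBS7 (0.0042) and BBIP1 (0.14) were not called, and MKKS was called higher (0.21).

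Among factors that assemble or dock dynein arms, 5 of 14 tested were higher and 3 lower (all tested genes: 36.5% and 35.9%). PIH1D2 fell by 0.87 ± 0.26, DNAAF2 fell by 0.58 ± 0.07, and CCDC151 (0.70 ± 0.24) and DNAAF3 (0.60 ± 0.17) rose. With the offsets DNAAF2 kept its call (−0.88), and PIH1D2 (−0.35), CCDC151 (0.08) and DNAAF3 (−0.05) did not. Of 5 smaller dynein chains tested, 2 were higher and 2 lower (all tested genes: 36.5% and 35.9%). DNAL4 rose by 1.36 ± 0.08 and DNALI1 by 0.45 ± 0.05, while WDR78 (−0.78 ± 0.28) and DNAL1 (−0.33 ± 0.05) fell. With the offsets DNAL4 stood at 0.84 and DNALI1 at 0.50, WDR78 (−0.28) was not called and DNAL1 was called higher (0.15).

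In the nexin-dynein regulatory complex, which links neighbouring doublets, 8 genes were tested, with 2 higher and 1 lower (all tested genes: 36.5% and 35.9%). FBXL13 fell by 1.57 ± 0.31, while TCTE1 (1.53 ± 0.38) and GAS8 (0.28 ± 0.06) rose, the last without a call under the offsets (−0.05). Of 11 further axonemal genes tested, 3 were higher and 4 lower (all tested genes: 36.5% and 35.9%). SPEF1, a microtubule protein of the central apparatus, rose by 1.98 ± 0.37 and MAATS1, a radial spoke protein, fell by 1.89 ± 0.19. SPAG8 rose by 0.91 ± 0.35 and MNS1, a protein inside the doublets, fell by 0.72 ± 0.08. With the offsets SPEF1 (1.25), MAATS1 (−1.49) and MNS1 (−0.32) kept their calls and SPAG8 (0.63) did not.

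Of the upstream regulators, 6 of 17 tested were higher and 8 lower (35.3% and 47.1%, against 36.5% and 35.9% of all tested genes). MYB, which acts early in multiciliated differentiation, fell from 122 ± 6.77 to 42 ± 8.31 normalized counts (−1.54 ± 0.18; adjusted p = 1.6e-08, edgeR). The RFX factors RFX3 (−0.97 ± 0.07; adjusted p = 8e-12, edgeR) and RFX7 (−0.85 ± 0.05) fell, and NOTCH1 rose by 1.51 ± 0.39 from 0.0473 FPKM. With the offsets they were −1.30, −0.36, −0.40 and 0.95, each still called. GMNC, the partner of MCIDAS, had no count.

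**Figure D5:**
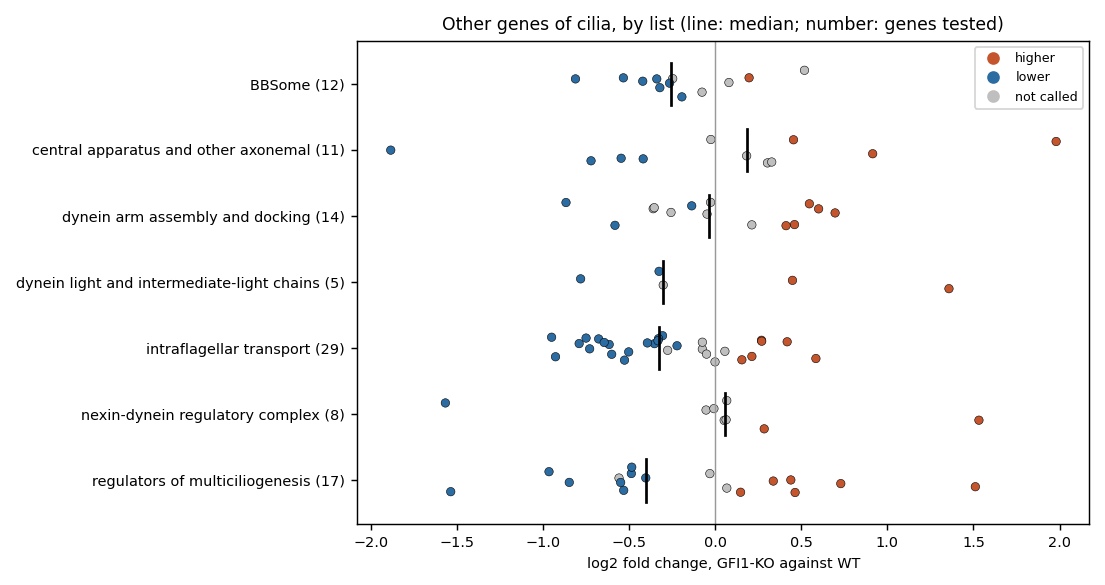
Log2 fold change of GFI1-KO against WT (x axis, without offsets) of the tested genes in 7 lists of ciliary genes outside the rule (y axis, number tested in parentheses), as points coloured by the call with the list's median as a line. The medians of the regulators (−0.40), intraflagellar transport (−0.33), the smaller dynein chains (−0.30) and the BBSome (−0.26) lay lowest, and with the GC and length offsets that of the BBSome turned to 0.13, that of the smaller dynein chains to 0.15, and those of intraflagellar transport (−0.11) and the regulators (−0.09) came nearer to 0.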

How the data were processed

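Poly-T-selected RNA of 6 H1155 libraries was sequenced on a NovaSeq system. The authors deposited raw counts per gene, with gene coordinates on GRCh38 and gene lengths in bases (other deposited values). Their methods name Hisat2 and featureCounts, while the submitters' processing notes list Bowtie2 and HTSeq with hg38; which of them made the table, the strand setting and the rule for reads with several matches are not given in the sources used here.

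Counts were tested with edgeR 4.0.16 in R 4.3.3 (TMM factors, filterByExpr, quasi-likelihood F test, Benjamini-Hochberg adjustment over 17514 genes, adjusted p of at most 0.05). Standard errors are the size of the log2 fold change over the square root of F. FPKM was computed from counts, gene length and library total. Alternatives were DESeq2 1.42.0, limma-voom (limma 3.58.1), other scaling factors and filters, the replicate number as a block, offsets from natural splines (5 degrees of freedom) of GC content and length, and each library left out. The edgeR fit alone was tried on simulated counts in which 200 of 17192 genes were changed. It called 84% of these, and 6.67% of its calls were false. Far more genes were called in the real data, so the trial does not measure the error there. Totals of 14882914 to 17692882 counts limit the precision of low genes, and PCR copies are not independent molecules.

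The members and lists were chosen with earlier results of these data known. Named were GFI1, members with a call and a log2 fold change of at least 1 in size, members at 1 FPKM or more, the 13 genes the rule spells out, and per further list at most 4 called genes with the largest change; others were chosen after their values were seen. GC content and shared 50-base words are from GENCODE release 44, which held 58207 of the 58735 identifiers, and 3 list symbols had no row. Scripts used Python 3.11.15, pandas 2.3.3 and matplotlib 3.10.9. Results on an item withheld for evaluation are not reported here.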

Additional observations from a re-analysis of the deposited data

How the results depend on the processing

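For GFI1 the log2 fold change was 0.269 with upper-quartile factors (adjusted p = 0.0545), 0.1671 with GC and length offsets, 0.172 with these and the block, and 0.3074 with DESeq2 (adjusted p = 0.072), none of them called, and 0.2144 to 0.4272 with a library left out. Requiring a log2 fold change of at least 1 in size left 1792 higher and 1276 lower of all genes, 2 and 7 of the members, and 4 and 3 of the further ciliary genes. With the offsets, alone or with the block, 25 further ciliary genes were lower. CFAP44 turned to 0.1343 with the offsets and 0.1329 with the block too, and RSPH3 to 0.155 and 0.1549; the cause was not tested. DESeq2 called 5 members higher and 16 lower, beside 5876 higher and 5868 lower of all genes. It did not call DNAH11, CFAP58, RSPH3, CCDC40, RSPH1 and CFAP53. RSPH1 was not called with upper-quartile or median-of-ratios factors or library size alone, nor RSPH3 and CCDC40 without a filter. Leaving a library out gave 6123 to 6246 genes higher and 6027 to 6253 lower over all genes, and 22 to 24 higher and 39 to 42 lower among the further ciliary genes.

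Expression gave no sign that the replicate numbers pair the libraries. Deviations from the group means correlated at −0.00337 to 0.023 between same-numbered libraries and at −0.0516 to 0.0422 between differently numbered ones. These values do not show how the libraries were made. With the replicate number as a block, 7 members were higher and 19 lower (RSPH3 was not called), beside 6359 higher and 6214 lower of all genes. GFI1 then stood at 0.3157.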
